A study of Mus musculus with 4 samples.

Results

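Perineuronal nets are lattices of extracellular matrix that enclose the cell body and proximal dendrites of certain neurons, in the neocortex mainly the fast-spiking interneurons that contain parvalbumin. The genes described here are 9 whose products build this lattice and the looser matrix of the brain: Acan, Bcan, Ncan and Vcan (the lecticans aggrecan, brevican, neurocan and versican), Hapln1 and Hapln4 (link proteins), Tnr and Tnc (tenascin R and tenascin C) and Has3 (a hyaluronan synthase). They were picked by symbol, and all 9 of 9 were among the 17778 genes of the table.

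In the lattice, hyaluronan, a long sugar chain made by synthases at the cell surface, serves as the backbone. Lecticans are chondroitin sulfate proteoglycans that hold on to hyaluronan with one end, link proteins fasten that contact, and tenascins tie the other ends of the lecticans together. In the adult brain such nets stabilize synapses on the enclosed neurons, and their maturation marks the close of periods of high plasticity.

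The medial prefrontal cortex (mPFC) was taken for mRNA sequencing from male mice (C57BL/6 in the labels, C57BL/6J in the methods of the study) that entered the experiment at postnatal day 21. CUMS mice (2 libraries) had gone through 3 weeks of chronic unpredictable mild stress and had shown depression-like behaviors, and control mice (2 libraries) had lived without the stresses. Only stressed mice that met all behavioral criteria were used, so that the comparison is between selected stressed mice and controls. Both groups were sampled 24 hours after the behavior tests. The labels name no transgene, drug or allele in either group. RNA was isolated from each mouse, and whether RNA of several mice was pooled for a library was not given in the sources used here.

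Each gene had 1 control mean and 1 CUMS mean in RPKM (reads normalised to the length of the gene and the size of the library), with no value for a single library. No difference below could therefore be set against the spread between mice, and none was tested. The step between low values corresponded to an estimated 7385524 fragments in a control library and 7440476 in a CUMS library. From these, the fragments behind each mean were estimated and an exact 95% counting interval was computed, which covers counting error only. A difference in such tissue can come from fewer cells of a type, from less RNA per cell or from what the dissection held of neighbouring tissue. These cannot be told apart.

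Among the matrix genes, Acan had the largest fold difference between the groups, and it was lower in CUMS. The abundant genes differed little: Bcan was slightly lower in CUMS, and Ncan and Hapln4 were slightly higher. In all, 6 members had a higher mean in CUMS and 3 a lower mean (Acan, Bcan and Has3). The median log2 ratio of CUMS over control was 0.10 over the 9 members and -0.02 over the 14257 genes that reached 0.5 RPKM in control or in CUMS.

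A fold change above 1.5 was found in 1 of the 9 members in the lower direction (Acan), where 4.42% of all genes compared were lower by that fold. In the higher direction it was found in 0 of 9 members, where the share among all genes was 2.78%. The counting interval lay below 0 in 2 members (Acan and Bcan), against 16.8% of all genes. It lay above 0 in 3 members (Ncan, Vcan and Hapln4), against 12.5% of all genes, and it included 0 in the other 4 members. With so few members these counts do not set the list apart from the other genes.

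**Figure D1:**
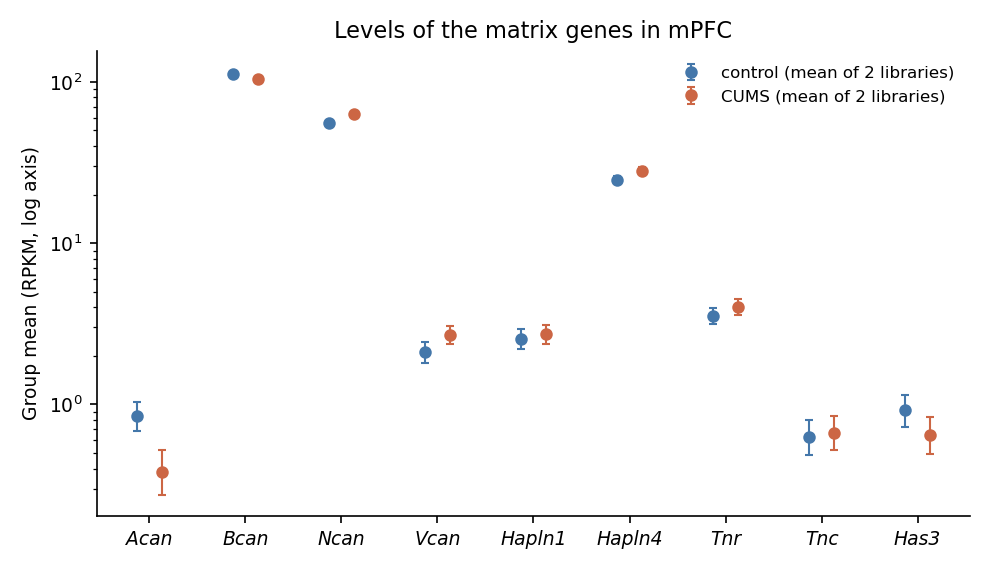
Mean level of the 9 matrix genes in control (blue) and CUMS (orange) mPFC, in RPKM on a log axis. Points are means of 2 libraries, and bars are 95% counting intervals, which do not include the spread between mice. Bcan, Ncan and Hapln4 stand above 20 RPKM, and the intervals of the groups are apart for Acan at the low end.

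The levels covered a wide range. In control, Bcan (112 RPKM) was 178 times as high as Tnc (0.63 RPKM). Bcan, Ncan and Hapln4 made up 94.8% of the summed RPKM of the 9 genes in control and 94.6% in CUMS. In both groups the order from the top was Bcan, Ncan, Hapln4, Tnr, Hapln1 and Vcan. The counting intervals of Hapln1 and Vcan overlapped in either group. The 3 lowest genes, each under 1 RPKM in both groups, were ordered Has3, Acan and Tnc in control and Tnc, Has3 and Acan in CUMS. In control the intervals of neighbours in this order overlapped. In CUMS the interval of Acan also overlapped that of Has3.

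Aggrecan is the lectican that is most tightly bound to mature nets, and nets do not form without it. Acan (gene 11595, GRCm38 chromosome 7, 79053226 to 79115099) averaged 0.845 RPKM in control, with a counting interval of 0.683 to 1.04. In CUMS it was 0.38 RPKM, with an interval of 0.277 to 0.519. The means rested on 92 and 42 fragments over both libraries of a group. The control mean was 2.22 times the CUMS mean, a log2 ratio of -1.15 (-1.70 to -0.60). Of all genes compared, 1.17% had a lower ratio.

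Both the level and the background bear on the value of Acan. Among the 1160 genes compared whose larger mean was under 1 RPKM, 19.6% were lower in CUMS by more than 1.5 fold, and 8.71% had a counting interval below 0. These genes were matched to Acan in RPKM and not in fragments, and some rest on fewer fragments (Hapln3 on 15 and 19). Acan met the minimum of 0.5 RPKM through its control mean alone. Its direction was the same under every alternative scaling and pseudocount, but with 1 RPKM added to both means the log2 ratio was -0.42, under the fold threshold.

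Brevican and neurocan are the main lecticans of the postnatal brain. Brevican comes from astrocytes, precursors of oligodendrocytes and neurons, and neurocan is most abundant during development. Bcan (gene 12032, chromosome 3, 87987531 to 88002175) averaged 112 RPKM in control and 104 in CUMS, a log2 ratio of -0.11 (-0.16 to -0.05) over 5257 and 4923 fragments. Ncan (gene 13004, chromosome 8, 70093085 to 70120863) averaged 55.7 RPKM in control and 62.7 in CUMS, a log2 ratio of 0.17 (0.12 to 0.22). The ratio of Ncan exceeded that of 82.8% of all genes compared, and the ratio of Bcan exceeded that of 32.0%.

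Versican is spliced into several forms, of which the shortest lack much of the chondroitin sulfate region, and in brain it comes largely from the oligodendrocyte lineage. Vcan (gene 13003, chromosome 13, 89655309 to 89743027) averaged 2.11 RPKM in control (178 fragments) and 2.70 in CUMS (230 fragments), a log2 ratio of 0.36 (0.07 to 0.65). This was the largest difference among the members that were higher in CUMS. The authors used a gene length of 5719 bases, while the longest of 8 coding transcripts in GENCODE M21 has 12427 bases. The level of Vcan beside other genes therefore depends on which forms were present, and its ratio between groups does so only if the mixture of forms differed.

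**Figure D2:**
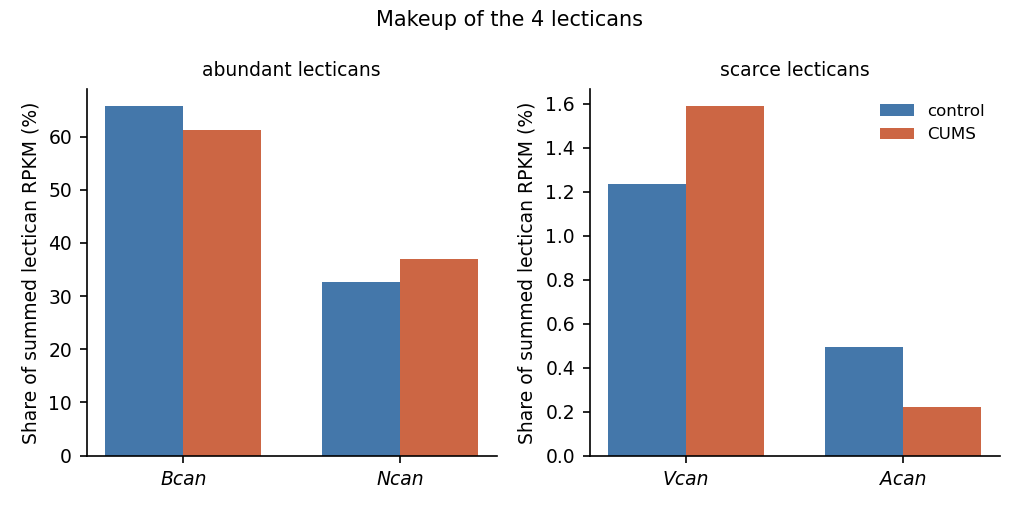
Share of each lectican in the summed RPKM of the 4 lecticans, in percent, in control (blue) and CUMS (orange), drawn on separate axes for the abundant and the scarce pair. Bcan took 65.7% in control and 61.3% in CUMS, and Ncan took 32.6% and 36.9%.

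The 4 lecticans summed to 171 RPKM in control and 170 in CUMS. Their total was nearly equal while the parts differed. A ratio of members within a group does not depend on how the groups were scaled. Ncan was 0.496 times the level of Bcan in control and 0.602 times in CUMS, a log2 difference of 0.28 (0.20 to 0.35). Vcan against Bcan was higher in CUMS by 0.46 on the log2 scale (0.17 to 0.76). The share of Acan in the lectican sum was 0.495% in control and 0.223% in CUMS, and that of Vcan was 1.24% and 1.59%. The intervals of these differences are again those of counting.

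Link proteins hold the lecticans on hyaluronan. Hapln4 (Bral2) is the partner of brevican in nets, and Hapln1 is the partner of aggrecan and is made by the neurons that carry nets. Hapln4 (gene 330790, chromosome 8, 70083529 to 70090862) averaged 24.7 RPKM in control and 28.1 in CUMS, a log2 ratio of 0.18 (0.07 to 0.29) over 1307 and 1493 fragments. Hapln1 (gene 12950, chromosome 13, 89540529 to 89611832) averaged 2.56 RPKM in control and 2.73 in CUMS, a log2 ratio of 0.10 (-0.20 to 0.38). Hapln1 was the median member. The level of Hapln4 was 9.68 times that of Hapln1 in control and 10.3 times in CUMS, a log2 difference of 0.09 (-0.22 to 0.40).

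Partners in nets had unlike ratios. Acan was 0.331 times the level of Hapln1 in control and 0.139 times in CUMS, a log2 difference of -1.25 (-1.87 to -0.61). Hapln4 was 0.221 times the level of Bcan in control and 0.269 times in CUMS, a log2 difference of 0.29 (0.16 to 0.41). Hapln4 against Ncan was 0.444 in control and 0.447 in CUMS, a log2 difference of 0.01 (-0.11 to 0.13).

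**Figure D3:**
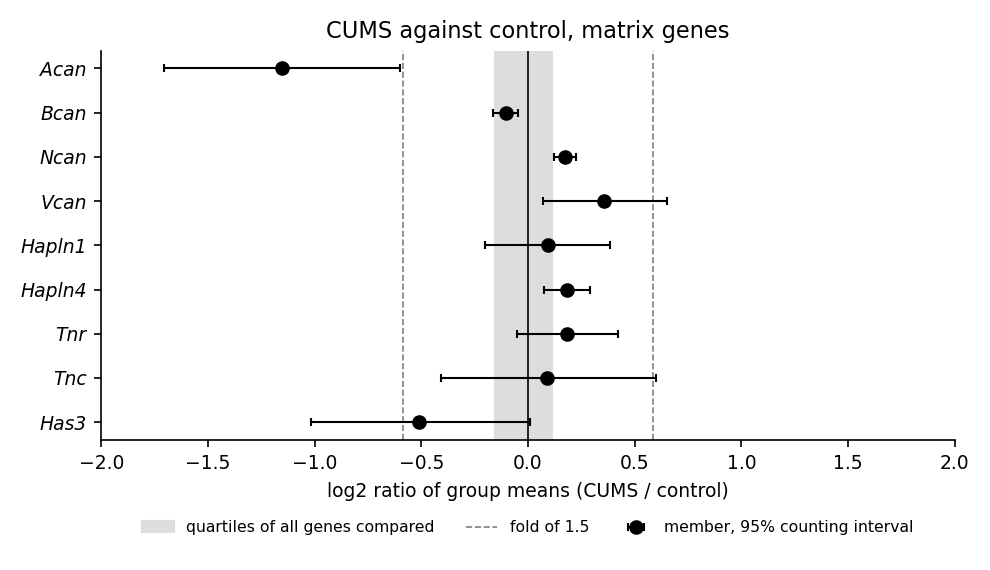
Log2 ratio of CUMS over control for the 9 matrix genes, with 95% counting intervals as bars. The grey band runs from the lower to the upper quartile of all genes compared (-0.15 to 0.11) and the dashed lines mark a fold of 1.5. Acan alone lies past a dashed line.

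The genes of this family lie in pairs on the chromosomes, each lectican next to a link protein gene with 0 coding genes between them in the RefSeq annotation. The gap was 2222 bases between Ncan and Hapln4, 1927 between Acan and Hapln3, 18382 between Bcan and Hapln2 and 43476 between Vcan and Hapln1. Log2 ratios of the pair Ncan and Hapln4 were 0.17 and 0.18. In the pair Vcan and Hapln1 they were 0.36 and 0.10. In the pair Bcan and Hapln2 they were -0.11 and -0.15.

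The pair of Acan and Hapln3 differed in sign. Hapln3 averaged 0.71 RPKM in control and 0.88 in CUMS, a log2 ratio of 0.31, but rested on 15 and 19 fragments and had an interval of -0.72 to 1.41. Hapln2, the link protein of the nodes of Ranvier, was 5.69 and 5.14 RPKM, with an interval of -0.47 to 0.17. No exon of these 8 genes shared a base with an exon of another gene in GENCODE M21.

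Tenascin R, a product of oligodendrocytes and some interneurons, crosslinks lecticans in nets. Tenascin C is a glycoprotein of developing and injured tissue. Tnr (gene 21960, chromosome 1, 159523729 to 159931729) averaged 3.56 RPKM in control (283 fragments) and 4.04 in CUMS (324 fragments), a log2 ratio of 0.18 (-0.05 to 0.42). Tnc (gene 21923, chromosome 4, 63959785 to 64047015) averaged 0.63 RPKM in control and 0.67 in CUMS, a log2 ratio of 0.09 (-0.41 to 0.60). Both were higher in CUMS by less than the counting error. For Tnr the authors' length was 5395 bases against 12202 in its longest coding transcript, so that its level per length is uncertain.

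Has3 is one of 3 hyaluronan synthases and makes chains at the plasma membrane. Has3 (gene 15118, chromosome 8, 106870242 to 106882902) averaged 0.92 RPKM in control (80 fragments) and 0.645 in CUMS (57 fragments), a log2 ratio of -0.51 (-1.02 to 0.01). Its interval just included 0 and its fold of 1.43 was under the threshold. Of its exon bases 5.52% are shared with Chtf8 on the opposite strand, and the use of strand in counting was not stated. The shared part was 3.44% in Tnr and 2.26% in Tnc, each with an antisense gene.

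**Figure D4:**
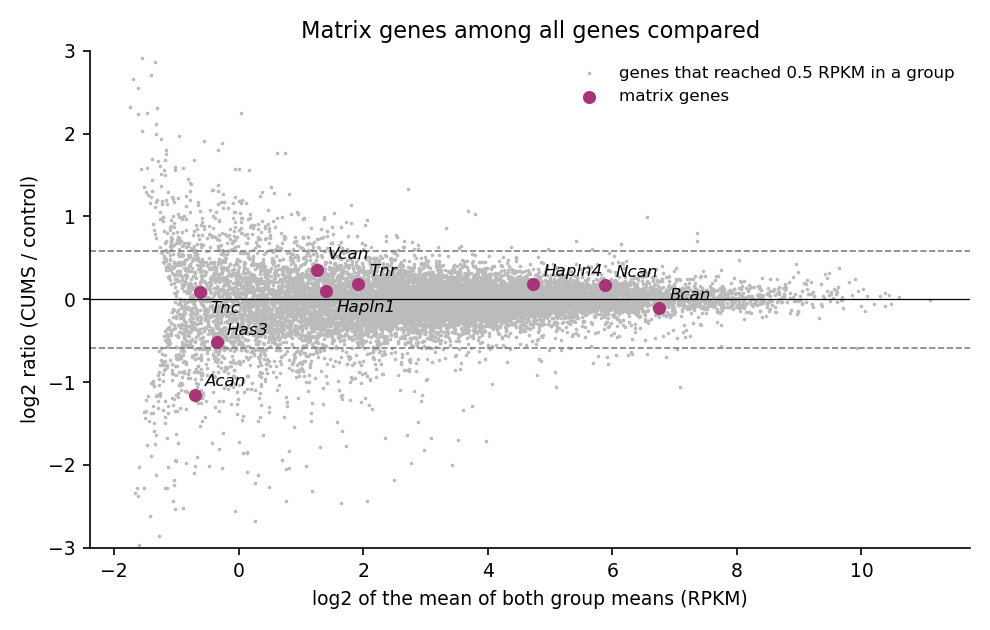
Log2 ratio of CUMS over control (vertical) against the log2 of the mean of both group means in RPKM (horizontal) for genes that reached 0.5 RPKM in control or CUMS (grey, 14218 drawn and 39 beyond the axis) and the 9 matrix genes (purple). Dashed lines mark a fold of 1.5. The grey cloud widens to the left, where Acan, Has3 and Tnc lie.

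Other genes of the matrix were compared as 5 lists. Of 103 genes listed, 101 were in the table and 93 reached 0.5 RPKM in control or CUMS. Over these 93 genes the median log2 ratio was -0.01. A fold above 1.5 was found in 4 lower and 3 higher genes, which is 7.53% of the 93, where 4.42% of all genes compared were lower and 2.78% higher by that fold. The counting interval lay below 0 in 19 genes and above 0 in 19 genes, where the shares among all genes were 16.8% and 12.5%.

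Enzymes that build and sulfate chondroitin sulfate chains had a median log2 ratio of 0.01 over 21 genes, and 0 of them passed the fold in either direction. The largest differences among genes of at least 5 RPKM were those of B3galt6, which adds a sugar of the linker between core protein and chain, and Csgalnact1, which starts chain growth. B3galt6 averaged 5.31 RPKM in control and 6.39 in CUMS, a log2 ratio of 0.27 (0.02 to 0.51). Csgalnact1 was 4.24 and 5.07 RPKM, a log2 ratio of 0.26 (0.01 to 0.51), and so reached 5 RPKM only in CUMS, where it was higher.

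Among 10 other genes of hyaluronan synthesis, binding and breakdown, the median was -0.07. Only 1 gene passed the fold, in the lower direction, where 4.42% of all genes compared did. Tnfaip6 (TSG-6), which binds hyaluronan and transfers heavy chains onto it, averaged 5.70 RPKM in control (135 fragments) and 2.93 in CUMS (70 fragments), a log2 ratio of -0.96 (-1.40 to -0.53).

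Matrix proteases and their inhibitors had a median of -0.09 over 16 genes. The counting interval lay below 0 in 6 and above 0 in 2 of them, against 16.8% and 12.5% of all genes. Adamts8, a protease of the family that cleaves lecticans, passed the fold, where 2.78% of all genes compared were higher by that fold. It averaged 1.02 RPKM in control and 1.68 RPKM in CUMS, a log2 ratio of 0.72 (0.24 to 1.26). Adamts1 and Adamts4 of the same family had lower means in CUMS. Their log2 ratios were -0.49 (-0.83 to -0.15) and -0.45 (-0.67 to -0.22). The interval of Adamts15 (-0.12) included 0. Matrix receptors had a median of 0.05 over 14 genes and 0 passed the fold. Rtn4r (the Nogo receptor) averaged 46.3 RPKM in control and 62.1 in CUMS, a log2 ratio of 0.42 (0.32 to 0.53). Ptprz1, a receptor phosphatase that is itself a chondroitin sulfate proteoglycan, was 13.9 and 11.1 RPKM, a log2 ratio of -0.32 (-0.43 to -0.22).

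The remaining list, other secreted and surface proteins of the brain matrix together with Otx2, had a median of -0.08 over 32 genes. By the fold 3 were lower and 2 higher, against 4.42% and 2.78% of all genes compared. Sparc, a matrix glycoprotein of glia and vessels, averaged 145 RPKM in control and 89.3 in CUMS, a log2 ratio of -0.70 (-0.76 to -0.63). Otx2, a homeoprotein that is bound at nets and is not itself a matrix protein, was 0.685 and 0.215 RPKM. Its log2 ratio was -1.67 (-3.22 to -0.20) on 18 and 6 fragments. Thbs1 (thrombospondin 1) was 0.63 and 0.40 RPKM, with an interval of -1.29 to 0.00. Like Acan, Otx2 and Thbs1 reached 0.5 RPKM through their control means alone. The small proteoglycans Dcn and Ogn, made by meningeal and vascular fibroblasts, had log2 ratios of 0.87 (0.42 to 1.35) and 0.86 (0.23 to 1.47). Dcn was 2.2 and 4.02 RPKM on 61 and 113 fragments, and Ogn was 0.955 and 1.73 RPKM on 36 and 65. Lum, Omd and Bgn, other small proteoglycans of the list, had lower means in CUMS (-0.54, -0.24 and -0.01), with intervals that included 0.

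**Figure D5:**
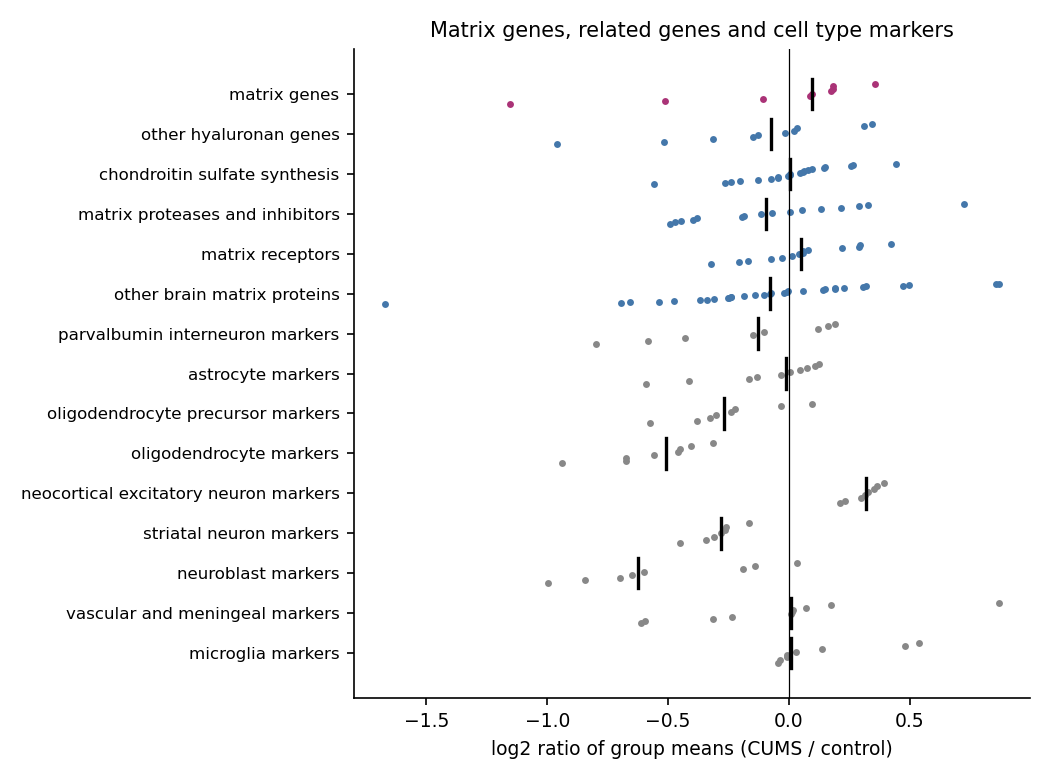
Log2 ratio of CUMS over control for the 9 matrix genes (purple), the related matrix lists (blue) and the cell type marker lists (grey). Each point is a gene that reached 0.5 RPKM in control or CUMS and each black line is a list's median. The medians of oligodendrocyte and neuroblast markers lie to the left of the median of the matrix genes. That of neocortical excitatory neuron markers lies to the right, and the points of the lists overlap.

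Markers of the cells that make the matrix, or that a dissection of the mPFC could hold, were read beside these results as 9 lists. The labelled tissue carried its markers, with Slc17a7 at 635 RPKM in control and 791 RPKM in CUMS, and no listed marker in the table was at 0 in both groups. Markers of neocortical excitatory neurons were higher in CUMS in 8 of 8 genes (median log2 ratio 0.32, summed RPKM 1595 and 1913). Oligodendrocyte markers were lower in 8 of 8 genes (median -0.51, summed RPKM 783 and 552). Striatal markers were lower in 7 of 7 genes (median -0.28, summed RPKM 325 and 278) and neuroblast markers in 7 of 8 genes (median -0.63, summed RPKM 350 and 340). Most of the neuroblast sum was Tubb3, the 1 neuroblast marker with a higher mean in CUMS, at 299 RPKM in control and 306 in CUMS. The first gene of each of these lists had a log2 ratio of 0.32 (Slc17a7), -0.45 (Mog), -0.26 (Drd1a) and -0.19 (Dcx). Their part in the ratios of the matrix genes was not tested.

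Parvalbumin interneuron markers, listed for the cells that carry nets, numbered 9. Whether they mark those cells alone in this tissue was not tested. Of these 9, 4 were higher and 5 lower in CUMS (median -0.10), at a summed RPKM of 145 in control and 137 in CUMS. The largest part of the sum was Tac1, at 50.5 RPKM in control and 47.0 in CUMS. Of the 9 markers, 8 reached 0.5 RPKM in control or CUMS, and Erbb4 did not. The counting interval lay below 0 in 4 of the 8, Syt2 (-0.80), Sox6 (-0.58), Lhx6 (-0.43) and Kcnc1 (-0.15), against 16.8% of all genes. It lay above 0 in 1, Kcnc2 (0.12), against 12.5% of all genes. Pvalb itself was 22.9 and 26.2 RPKM, a log2 ratio of 0.19 (-0.03 to 0.42). Syt2 was the one marker of this list past the fold, where 4.42% of all genes compared were lower by that fold. These markers other than Pvalb were chosen for mention after their values were seen.

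Of the glial sources of matrix, astrocyte markers were higher in 5 and lower in 5 of 10 genes (median -0.01, summed RPKM 1067 and 1000). Oligodendrocyte precursor markers were lower in 7 of 8 genes (median -0.27, summed RPKM 153 and 123), although Pdgfra was 7.86 and 8.39 RPKM. The counting interval lay below 0 in 5 of these 8 markers, against 16.8% of all genes. It included 0 for Pdgfra (0.09), C1ql1 (-0.03) and Neu4 (-0.22). Vascular and meningeal markers were higher in 6 and lower in 4 of 10 genes (median 0.01, summed RPKM 120 and 109). Microglia markers were higher in 4 and lower in 4 of 8 genes (median 0.01, summed RPKM 188 and 195). Aqp4 of astrocytes, Cx3cr1 of microglia and Cldn5 of vessels had log2 ratios of 0.12, 0.14 and -0.61. In the list of Cldn5, Flt1, Tek, Vtn and Rgs5 had 0.01, 0.01, 0.02 and 0.17, and Pecam1 had -0.31. Cspg4 and Dcn stand both in a marker list and among the other matrix proteins. Vcan and Tnr, which oligodendrocyte lineage cells make, had higher means in CUMS. There the oligodendrocyte markers were lower, and the precursor markers were lower or had an interval that included 0. The part of these cells in the values of Vcan or Tnr was not tested.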

How the data were processed

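The authors trimmed reads with SolexaQA, aligned them to mm10 with TopHat 1.0.12 and Bowtie 0.11.3, counted uniquely aligned reads and deposited RPKM values averaged over the 2 libraries of each group. The annotation and use of strand were not given in the sources used here. The value 0.01 stood for 0. The authors' log2 ratios and NOISeq probabilities were not used. There were 0 columns of single libraries, so that limma or edgeR could not be run.

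Log2 ratios were taken from the deposited means without a pseudocount, for genes that reached 0.5 RPKM in control or CUMS (the minimum in the methods of the study), with its fold of 1.5 as the threshold. The value of 1 fragment was found from steps in mean x length of genes under 1000 bases. Products lay within 0.15 of a whole step for 86.5% of the 406 control values used and 86.2% of the 392 from CUMS, compared with 23.0% and 30.0% after gene lengths were shuffled. Equal depth of the libraries in a group was assumed. The depth so found, even when doubled, is under the read numbers of the study. The gap was not resolved, so the true depth may lie outside the settings tried. Exact Clopper-Pearson (ratios), Poisson (levels) and conditional odds ratio (pairs) 95% intervals used these fragments (scipy 1.17.1), and the code was tested on simulated data. Whether PCR duplicates were removed was not stated in the methods of the study, and the counting intervals make no allowance for them.

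The members and lists were chosen with earlier results of these data known. Named were the members, related genes past the fold (or, without any in a list, the 2 of at least 5 RPKM with the largest ratio), the first marker of each list and any marker at 0. Some further genes of the lists were named after their values were seen, to give the limits of a count, a sum or a named gene. No gene was named for a pattern like a member's, since 2 means carry none. Coordinates are from RefSeq GRCm38.p6, the assembly of mm10. Cemip, Mmp3 and Drd1 were not analysed here (Drd1a was).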

Additional observations from a re-analysis of the deposited data

How the results depend on the processing

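No paired analysis was possible because values of single libraries were not among the data used. Fits without each library were not run for the same reason. Of 95 values under alternatives, 0 reversed and 79 stayed within their counting interval or within 1.5 times the count. Many of the 95 could hardly move, such as log2 ratios under the small rescalings and counts that were 0 at the start. The tally therefore says little about stability. The number of members past the fold, 1 lower and 0 higher, was 2 lower and 1 higher at a lower threshold (a log2 ratio beyond 0.32 in place of 0.58). It was 0 lower with 1 RPKM added to both means, where Acan had a log2 ratio of -0.42, and 0 lower among the 3 members of at least 5 RPKM, which exclude Acan. The share of all genes past the fold in the lower direction, 4.42%, was 11.3%, 1.40% and 1.28% in these settings. Of the 3 members, 1 had a counting interval below 0 and 2 above, where the shares of all such genes were 19.3% and 15.9%. Halving or doubling the assumed fragments gave 2 or 3 members below 0 and 2 or 4 above, and moved the shares of all genes likewise, to 9.60% or 24.9% below and 6.89% or 19.4% above. Rescaling CUMS shifted every log2 ratio by 0.015 or -0.0076 and changed none of these counts of members. The number of all genes lower by the fold, 630, was then 597 or 641, and that of intervals below 0, 2391, was 2106 or 2552. The median of the members was 0.09 to 0.13 when each was left out in turn.

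As shares of fragments, in which long genes weigh more, Bcan took 46.0% of the lecticans in control and 41.4% in CUMS, Ncan 51.7% and 56.3%, Vcan 1.56% and 1.93%, and Acan 0.805% and 0.353%. With the longest coding transcript as the length, an alternative chosen after seeing the data, Vcan took 0.569% and 0.733% of the RPKM. The depth limits Acan, Has3 and Tnc most, at 42 to 92 fragments a group.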

Other observations

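A wider set was read after seeing the data: the genes whose deposited GO component names the extracellular matrix. It held 239 genes, of which 175 had at least 0.5 RPKM in either group, and 7 of the 9 members (Has3 and Ncan lacked the term). Of the 175 genes 89 were higher and 86 lower in CUMS, with a median log2 ratio of 0.01. By a fold above 1.5, 5 genes (2.86%) were lower and 3 (1.71%) were higher, where the shares among all genes compared were 4.42% and 2.78%. Of these 8 genes, 2 reached 5 RPKM. One was Sparc. The other was Cyr61, a matricellular protein whose gene is switched on quickly by growth factors. It averaged 10.6 RPKM in control and 4.56 RPKM in CUMS, and so reached 5 RPKM only in control, where it was higher. Its log2 ratio was -1.22 (-1.52 to -0.93) over 319 and 138 fragments.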
